A study of Mus musculus with 8 samples.

Results

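The 4 arrays of mice that lack Il18 were compared, out of 8 arrays in the series: a group-housed control and an isolated (stress) group, each in colon and in rectum. The rule took the 4 IL18ko arrays by genotype alone and set stress against control within each tissue, as 2 pairs. Each array holds mucosal RNA pooled from 5 mice, hybridised as a single colour to a whole mouse genome microarray. The other 4 arrays hold wild-type (WT) mice in the same arrangement and are used here only to show where the IL18ko pairs differ.

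Brothers were caged together, 5 to a cage, until an age of 10 to 12 weeks, when 3 were moved to cages of their own. The labels give the isolation as 8 days in one place and 16 days in another. The design text places the controls before isolation, while the treatment text gives no day for them, so it is not settled whether the isolated mice were also older; if they were, age and isolation cannot be told apart. The colon piece lay 2.5 to 3.5 cm from the ileocecum and the rectum piece 7 mm from the anus. All mice of the 4 arrays, controls included, carry the Il18 deletion, and it is not stated whether the same animals gave both tissues. With 1 pooled array per group there is no replicate and no test within a tissue. The 4 colon arrays shared one slide and the 4 rectum arrays another, with control and stress at a different position on each, so position and housing cannot be told apart.

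IL-18 is a cytokine of the interleukin-1 family that epithelial cells and macrophages make as a precursor, cleaved by caspase-1 and released during inflammasome activation. In the gut it acts on epithelium and on lymphocytes, where it promotes interferon-gamma production and cytotoxic function. Social isolation of a mouse is a psychological stressor of the kind that engages the glucocorticoid and sympathetic axes.

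Levels are given as log2 of the scanner's processed signal relative to the 75th percentile of the same array, so that 0 is the level at that percentile. A difference is always stress minus control, in log2 units, and 1 such unit is 2-fold. On these arrays 62.2% to 66.4% of the spots were well above background and 0 were saturated. The scanner's own error on a difference was 0.20 for most genes and larger for dim ones. Where a gene had another probe, both probes differed by a median of 0.17 in colon (3254 genes) and 0.15 in rectum (3294 genes). These measure error within an array only, not the spread between mice.

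The labels were checked on marker genes first. Il18 was not well above background on any IL18ko array, at -7.82 and -7.64 in control and stress colon and -7.85 and -7.48 in control and stress rectum, against 2.76 to 5.88 on the WT arrays. Hoxd13, a homeobox gene of the hindmost gut, stood at 0.77 and 0.86 in the IL18ko rectum and below background in the colon pair. Fxyd4, a regulator of the sodium pump in sodium-absorbing epithelium, stood at 6.81 and 6.74 in rectum against -3.50 and -3.62 in colon. Krt20, a keratin of differentiated colonocytes, lay between 7.01 and 7.87 on all 4 arrays, and Epcam, the epithelial adhesion molecule, between 5.26 and 5.43. The control rectum array stood apart: its skeletal muscle genes and a few secreted products (2310057J18Rik, Prol1, Pip) were far above those of the other 7 arrays, and the results it touches are given beside those values.

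In colon, 134 of 12336 genes measured on both arrays differed by more than 2-fold, which is 1.09%, with 92 higher and 42 lower under stress (0.746% and 0.34%). Under quantile normalization the split was 65 higher and 52 lower, and under median centring 67 and 53, so the excess of higher genes depended on the scaling. With normexp background correction, 34 genes passed in colon (20 higher) and 55 in rectum (2 higher). In rectum, 138 of 12510 genes passed 2-fold (1.1%), with the balance the other way, 30 higher (0.24%) and 108 lower (0.863%). Genes past 2-fold were mostly dim, with a median level of -3.65 in colon and -3.53 in rectum, where all genes measured had medians of 0.35 and 0.31. Among the brighter genes alone, chosen after seeing the data as those above the median level, 17 passed in colon (12 higher, 5 lower) and 21 in rectum, all of them lower. Most of those 21 were skeletal muscle genes, such as Myh4, Myh8 and Tnni2, a set whose signal was highest on the control rectum array. 2310057J18Rik and Jchain were among the others. At the smaller threshold of 1.5-fold, 775 genes were higher in colon (6.28%) and 186 lower (1.51%), against 159 higher (1.27%) and 249 lower (1.99%) in rectum.

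**Figure D1:**
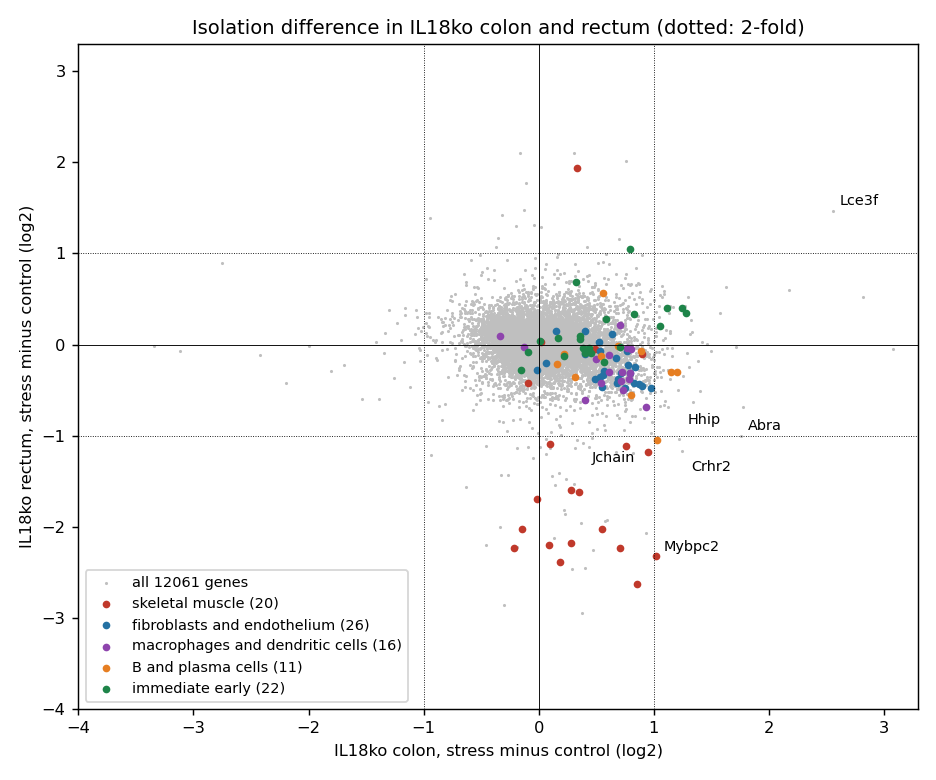
Each point is a gene well above background on all 4 IL18ko arrays (12061 genes), with its stress minus control difference in colon on the x axis and in rectum on the y axis, both in log2 units, and dotted lines at 2-fold. Stromal, macrophage and B cell genes gather right of 0 and mostly just below it, skeletal muscle genes lie far below 0, and Lce3f alone is past 2-fold upward in both tissues.

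Isolation differences were unlike in colon and rectum. Across the 12061 genes above background on all 4 arrays, the colon and rectum differences had a Pearson correlation of -0.12 and a Spearman rank correlation of -0.15, given as a description over genes, which are not independent replicates. Without the muscle, adipocyte, squamous and gland genes the correlation was -0.13 over 11996 genes. Only 1 gene passed 2-fold the same way in both tissues (0.00829%) and 5 passed it in opposite ways (0.0415%). No array is shared between the pairs.

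In colon, stress arrays were higher for most immediate early genes, the transcription factors and feedback regulators that cells switch on within minutes of a stimulus. Of 22 measured members, 20 were higher under stress, where 56.7% of all genes were. By more than 1.5-fold 8 were higher and 0 lower (6.28% and 1.51% of all genes). The median difference was 0.42 beside 0.04 for all genes. In rectum the same 22 genes had a median of 0.05 beside -0.01 for all genes, with 2 higher by 1.5-fold (1.27%). The summed signal of the list, on the linear scale in units of the 75th percentile, was 652 in control colon and 950 in stress colon. In rectum it was 831 and 832. A single bright member, Klf4, made up a large part of each of these sums.

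Dusp1, a phosphatase that switches off MAP kinases and is itself a stress and glucocorticoid target, stood at 0.31 in control colon and 1.56 in stress colon, a 2.37-fold difference. In rectum it read 0.84 and 1.24. Atf3, a stress-induced factor of the ATF family, read 1.75 and 2.87 in colon and 2.52 and 2.92 in rectum. For both genes the control colon array was the lowest of the 4 and both stress arrays lay above their controls.

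Egr1, a zinc finger factor induced by growth factors, read 0.63 and 1.69 in colon and 0.16 and 0.37 in rectum. Its relative Egr2 read -3.77 and -2.49 in colon and -3.51 and -3.17 in rectum. Nr4a1, an orphan nuclear receptor induced early after stimulation, differed by 0.83 in colon and 0.33 in rectum. Klf4, a factor of differentiated epithelium and the brightest member, read 8.28 and 8.98 in colon and 8.85 and 8.82 in rectum. The AP-1 subunits Fos, Jun and Junb differed by 0.45, 0.57 and 0.40 in colon and by -0.10, -0.20 and -0.08 in rectum, so the colon differences of these subunits did not reach 2-fold. Members near 0 in colon were Ier3 (0.01), Btg2 (-0.09) and Nr4a2 (-0.15).

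In the WT pairs this list had medians of 0.06 in colon and 0.45 in rectum. Egr1, Egr2 and Dusp1 were lower under stress in WT colon, by -0.83, -1.07 and -0.22. In the WT rectum pair 14.5% of genes were higher by 1.5-fold and 8.4% lower, against 1.45% and 2.18% in the WT colon pair, and this wider spread bears on every WT rectum value given here.

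**Figure D2:**
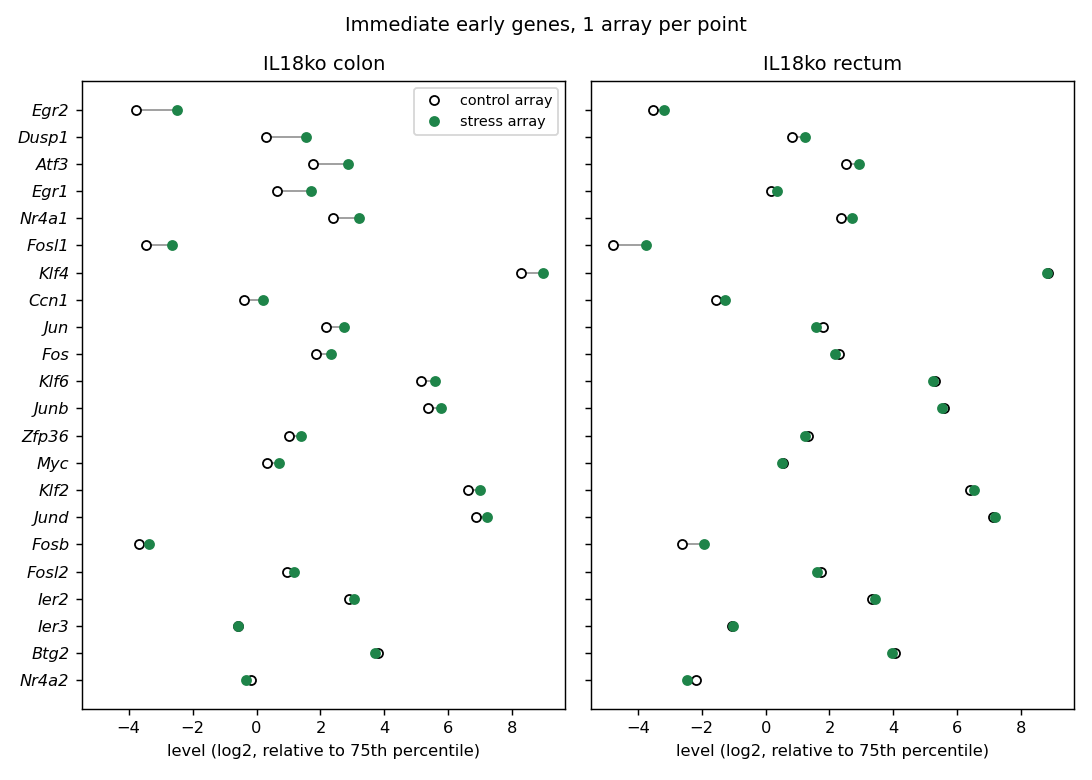
Levels of the 22 measured immediate early genes (log2 relative to the 75th percentile) on the control array (open circles) and the stress array (filled circles) of IL18ko colon and rectum, 1 array per point. In colon the filled circles lie to the right for 20 of 22 genes, most widely for Egr2, Dusp1, Atf3 and Egr1, while in rectum most pairs nearly coincide.

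Other genes that are known to be induced alongside these factors, chosen after their values were seen, were also higher in stress colon. Areg, encoding the EGF receptor ligand amphiregulin, read 0.23 in control and 1.53 in stress colon (2.45-fold) and 0.09 and 0.61 in rectum. Ifrd1, a transcriptional co-regulator, read 3.52 and 4.86 in colon and 3.63 and 3.77 in rectum. Dusp10, another MAP kinase phosphatase, read -0.95 and 0.54 in colon, a 2.82-fold difference, and -1.61 and -1.67 in rectum. The prostaglandin synthase Ptgs2 was dim, at -5.57 and -4.25 in colon, where its other probe gave 0.87 in place of 1.32.

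The promoters of 3 genes of these sets are shown because they differed together in colon and each has a single start in the RefSeq table. They are Atf3 (chr1:191183334-191183583, minus strand), Dusp1 (chr17:26508473-26508722, minus strand) and Areg (chr5:91139349-91139598, plus strand), the 250 bases before the transcript start, from RefSeq on build GRCm38.p6. Capitals mark the cAMP response element TGACGTCA and the TATA box TATAAA, searched on both strands; the motifs do not overlap here.
Atf3: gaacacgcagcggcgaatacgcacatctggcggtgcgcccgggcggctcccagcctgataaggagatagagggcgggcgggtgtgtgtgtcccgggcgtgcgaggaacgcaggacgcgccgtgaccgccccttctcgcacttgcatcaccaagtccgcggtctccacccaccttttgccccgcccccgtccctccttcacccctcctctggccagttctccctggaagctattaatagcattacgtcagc
Dusp1: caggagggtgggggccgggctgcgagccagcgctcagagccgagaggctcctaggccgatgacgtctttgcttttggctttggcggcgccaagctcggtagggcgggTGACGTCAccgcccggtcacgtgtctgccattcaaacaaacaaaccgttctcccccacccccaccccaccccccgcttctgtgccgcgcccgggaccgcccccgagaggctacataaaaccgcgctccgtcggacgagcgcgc
Areg: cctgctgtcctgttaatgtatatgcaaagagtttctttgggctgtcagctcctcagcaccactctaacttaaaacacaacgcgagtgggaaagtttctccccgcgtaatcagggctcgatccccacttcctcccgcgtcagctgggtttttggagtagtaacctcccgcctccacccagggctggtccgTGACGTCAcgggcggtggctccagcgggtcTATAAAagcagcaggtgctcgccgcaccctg
The cAMP response element was found in the Dusp1 window, beginning 143 bases before the start, and in the Areg window, beginning 61 bases before it. Of 27025 promoter windows of this length, 1.62% hold TGACGTCA and 13% hold TATAAA. The Areg TATA box began 31 bases before the start. Neither motif was found in the Atf3 window, which says only that these letters are not in it.

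Genes of the stroma and vessels of the mucosa were higher in stress colon and mostly lower in stress rectum. Of 26 fibroblast and endothelial genes, 25 were higher in colon, 14 by more than 1.5-fold where 6.28% of all genes were, with a median of 0.65. In rectum 22 of the 26 were lower, where 52.2% of all genes were, 0 by 1.5-fold, with a median of -0.30, and 21 of 26 were both higher in colon and lower in rectum, a pattern that 33% of all 12061 genes showed. Medians in WT were -0.16 in colon and 0.53 in rectum. In a bulk sample, more cells of a type and more RNA per cell cannot be told apart, which holds for every cell type list given here.

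Col3a1, a fibrillar collagen, read 3.24 and 4.21 in colon and 4.48 and 4.01 in rectum, and Col1a1 read 2.76 and 3.63 in colon and 3.60 and 3.17 in rectum. Their other probes gave 0.62 and 0.56 in colon, smaller than the 0.97 and 0.87 of the brighter probes. Another probe of the list member Pdgfra, which the counts do not use, gave -0.24 in colon and -2.25 in rectum. Flt1, a VEGF receptor of endothelium, read 0.13 and 1.04 in colon and 0.31 and -0.15 in rectum. The endothelial cadherin Cdh5 differed by 0.83 in colon and -0.42 in rectum, and Kdr, another VEGF receptor, by 0.84 and -0.25. Members near 0 in colon were Pecam1 (0.15), Dpt (0.07) and Tek (-0.02).

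The mean level of this list shows which arrays made the difference. It was -0.10 in control and 0.50 in stress IL18ko colon, and -0.12 and -0.30 in control and stress WT colon, so the stress IL18ko array was the highest of the 4 colon arrays. Rectum means were 0.72 and 0.48 in IL18ko and 0.03 and 0.46 in WT. Smooth muscle genes were higher in colon too: all 15 were higher (56.7% of all genes were), with a median of 0.43. Past 1.5-fold were 3 (6.28% of all genes), Synm (0.90), Lmod1 (0.66) and Myocd (0.64). The rectum median of the smooth muscle list was 0.03. Absorptive colonocyte genes had medians of 0.04 in colon and -0.04 in rectum, with 0 of 18 and 0 of 17 higher by 1.5-fold and 1, Slc51a, lower in colon. How far a different depth of the dissected mucosa takes part in these list differences was not tested.

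Macrophage and dendritic cell genes followed the stroma. Of 16 measured in colon, 14 were higher (56.7% of all genes were), 11 by more than 1.5-fold (6.28% of all genes), with a median of 0.71. In rectum 16 of 19 were lower (52.2% of all genes were), 2 by 1.5-fold (1.99%), with a median of -0.30. WT medians were -0.12 in colon and 0.62 in rectum. Cd163, a haemoglobin scavenger receptor of resident macrophages, read -3.26 and -2.33 in colon and -0.93 and -1.61 in rectum. Adgre1, a surface receptor of tissue macrophages, read -0.40 and 0.32 in colon and 0.03 and -0.27 in rectum. The complement chains C1qa, C1qb and C1qc differed by 0.61, 0.61 and 0.72 in colon and by -0.30, -0.12 and -0.40 in rectum. Ccr2, the receptor that recruits monocytes and a gene outside the list, was dim and differed by 1.40 in colon and -0.51 in rectum. Exceptions in colon were Cd14 (-0.13) and Mertk (-0.34).

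All 11 B and plasma cell genes measured in colon were higher, 6 by more than 1.5-fold and 3 by more than 2-fold, with a median of 0.69, where 56.7%, 6.28% and 0.746% of all genes were. Of the 12 measured in rectum 11 were lower, with a median of -0.17, beside 52.2% of all genes. Of the 11 measured in both tissues, 10 were higher in colon and lower in rectum, a pattern of 33% of all genes. Jchain, the joining chain of secreted IgA and IgM, was bright, at 3.77 and 4.79 in colon and 0.98 and -0.07 in rectum. Its other probe gave 0.99 and -1.23, so both probes placed it higher in colon and lower in rectum. On the WT colon arrays Jchain read 4.79 and 4.36, so the low array among the 4 colon arrays was the IL18ko control. Tnfrsf17, the plasma cell receptor BCMA, differed by 1.15 in colon and -0.30 in rectum, and Pou2af1, a B cell transcriptional co-activator, by 1.20 and -0.30. With normexp background correction the colon median of the list was 0.31.

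Chemokine and cytokine genes showed the same opposition. Of 23 measured in colon, 10 were higher by 1.5-fold and 1 lower, where 6.28% and 1.51% of all genes were, with a median of 0.53. The summed signal of the list was nonetheless 81.4 in control and 76.5 in stress colon. In rectum 16 of 22 were lower, where 52.2% of all genes were, with a median of -0.12. Cxcl12, a stromal chemokine that retains CXCR4-bearing leukocytes, read -0.04 and 1.03 in colon and 0.53 and 0.02 in rectum, and its other probe gave 1.01 and -0.52. Monocyte and eosinophil attractants went together in colon, with Ccl2 at 0.94, Ccl7 at 0.86, Ccl8 at 0.78 and Ccl11 at 1.0, and these differed by -0.37, -0.27, -0.60 and -0.11 in rectum. Ccl17 differed by 1.14 in colon and 0.13 in rectum. The gene lower by 1.5-fold was Ccl5, a T cell chemokine also made by cytotoxic lymphocytes, at -0.81 in colon. All 10 measured MHC class II presentation genes were higher in colon (56.7% of all genes were), with a median of 0.42. Of these 3 passed 1.5-fold (6.28% of all genes), H2-Oa (0.85), Ciita (0.63) and Cd74 (0.61). In rectum 9 of 10 were lower (52.2% of all genes), with a median of -0.13.

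**Figure D3:**
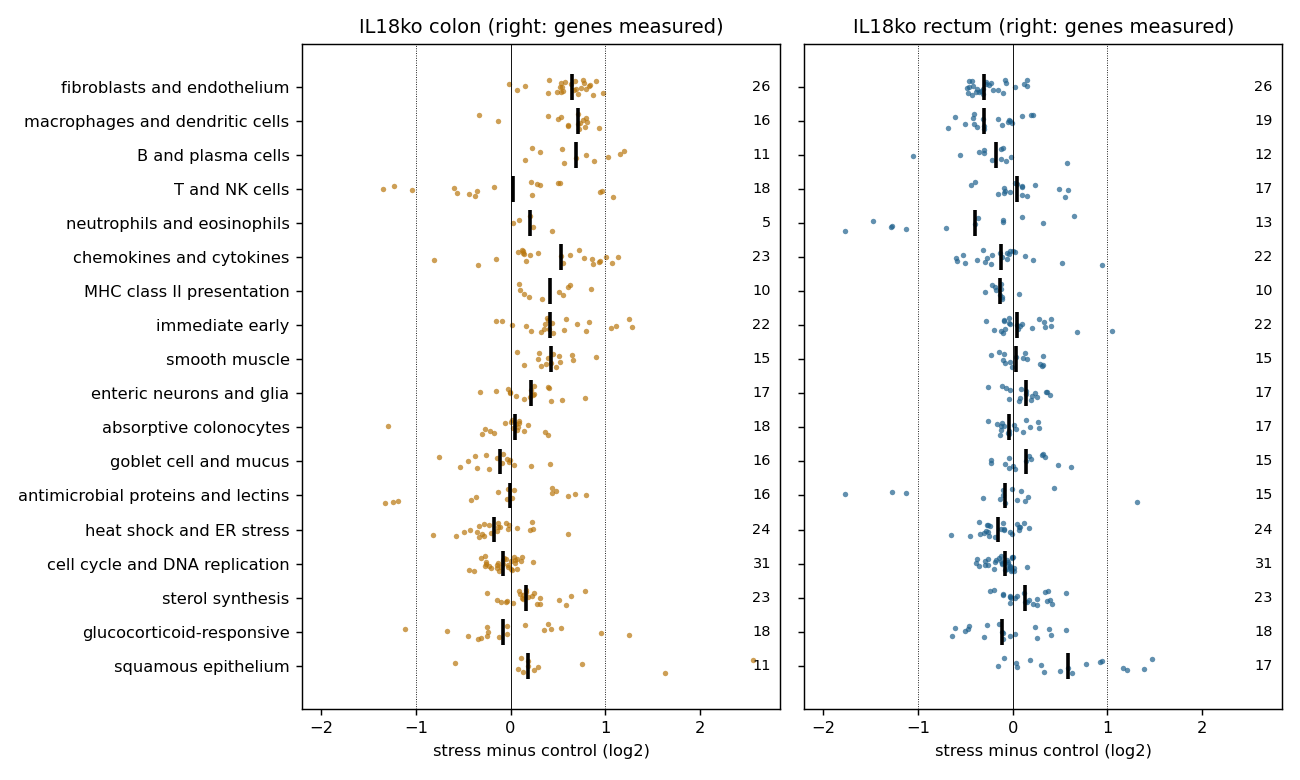
Stress minus control differences (log2) of the genes of 18 lists in IL18ko colon (left) and rectum (right), 1 point per gene well above background on both arrays of the pair, with the list median as a black bar, the number of genes at the right edge and dotted lines at 2-fold. The bars of the stromal, macrophage, B cell, chemokine and MHC class II lists lie right of 0 in colon. In rectum these bars lie left of 0 by less, between -0.12 and -0.30. In colon and rectum the bars lie at 0.04 and -0.04 for absorptive cell genes and at -0.08 in both for cell cycle genes. Those of goblet cell genes lie at -0.12 and 0.14.

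Several cytotoxic lymphocyte genes, chosen after their values were seen, went against this pattern in colon. Gzmb, a granule protease of killer cells, read -2.44 and -3.78 in colon, Gzma read -2.71 and -3.76, and Il2rb, the interleukin-2 and interleukin-15 receptor chain, read -1.71 and -2.95. Nkg7, a granule protein of cytotoxic cells, differed by -0.59. In each of these the stress array was the lower. Other T cell genes of the same list went both ways. Cd3e was higher by 1.09, Cd5 by 0.97 and Cd2 by 0.94, but all 3 were dim, at -4.15 or below on both colon arrays. Lck (-0.56), Cd8b1 (-0.44), Cd3d (-0.37) and Cd7 (-0.35) were lower, and Cd3g differed by 0.23. Over the 18 measured genes the colon median was 0.02, with 3 higher and 4 lower by 1.5-fold (6.28% and 1.51% of all genes). Gzmb and Gzma were lower in stress WT colon too, by -0.86 and -1.22.

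The Reg3 lectins, antimicrobial proteins of the epithelium that bind bacterial cell walls, were lower in stress colon and not measurable in rectum. Reg3b read 6.51 in control and 5.27 in stress colon (2.36-fold lower), Reg3g read 3.53 and 2.34 (2.28-fold lower), and Reg3a, which was dim, -3.51 and -4.84. All 3 were lower in stress WT colon as well, by -3.56, -1.82 and -2.52. These were the only 3 of 16 measured antimicrobial genes lower by 1.5-fold in colon, where 1.51% of all genes were. The 3 that were higher by 1.5-fold (6.28% of all genes) were Lyz2 (0.79), which macrophages also express, Slpi (0.68) and Lyz1 (0.60). The goblet cell lectin Zg16, at 9.15 and 9.12, and the angiogenin Ang4, at 6.38 and 6.40, were nearly level.

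The Reg3 promoters are shown because these neighbouring genes of chromosome 6 were lower together; each is the 250 bases before the start, from RefSeq on build GRCm38.p6, with TATAAA in capitals on either strand. Reg3b lies at chr6:78370635-78370884 (plus strand), Reg3g at chr6:78468875-78469124 (minus strand) and Reg3a at chr6:78380459-78380708 (plus strand).
Reg3b: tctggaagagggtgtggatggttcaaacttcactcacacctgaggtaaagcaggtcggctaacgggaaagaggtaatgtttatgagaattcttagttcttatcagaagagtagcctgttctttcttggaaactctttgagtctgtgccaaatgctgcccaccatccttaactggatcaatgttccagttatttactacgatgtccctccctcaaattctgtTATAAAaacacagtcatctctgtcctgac
Reg3g: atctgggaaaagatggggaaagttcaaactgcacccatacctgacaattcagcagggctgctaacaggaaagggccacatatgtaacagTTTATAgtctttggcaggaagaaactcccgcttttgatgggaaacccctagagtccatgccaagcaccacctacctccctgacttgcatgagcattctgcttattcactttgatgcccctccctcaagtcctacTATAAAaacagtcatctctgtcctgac
Reg3a: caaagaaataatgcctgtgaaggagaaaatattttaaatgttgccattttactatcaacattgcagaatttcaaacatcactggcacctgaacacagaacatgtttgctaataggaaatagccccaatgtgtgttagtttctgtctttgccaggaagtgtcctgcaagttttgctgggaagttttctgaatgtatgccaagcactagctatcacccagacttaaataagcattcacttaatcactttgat
TATAAA began 29 bases before the start of Reg3b and 27 before that of Reg3g, where it also occurred on the other strand. It was not found in the Reg3a window, and TGACGTCA was found in none of the 3.

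Single genes of calcium, hormone and nutrient handling, most of them chosen after their values were seen, also differed in colon. S100g, the calcium-binding protein calbindin-D9k induced by vitamin D, read -0.40 and -2.59 in colon (4.58-fold lower) and 2.05 and 1.62 in rectum, and it was lower in stress WT colon by -2.52. Trpv6, the calcium channel that works with it, differed by -0.72 in colon, while the vitamin D receptor Vdr differed by -0.14. S100g and Trpv6 were the 2 members of the vitamin D and calcium list lower by 1.5-fold (1.51% of all genes). In colon 7 of the 10 measured genes of that list were higher (56.7% of all genes), with a median of 0.06. Nts, encoding the gut peptide neurotensin, read 2.13 and 0.96 in colon and differed by -1.16 in WT colon. Angptl4, an inhibitor of lipoprotein lipase, differed by -1.12 in colon and -0.47 in rectum. Pdk4, a kinase that spares glucose in fasting, differed by 0.96 in colon. The bile acid exporter subunit Slc51a read 0.58 and -0.71 in colon.

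The colon genes with the largest differences were dim. Higher by the most were Pcdhb3 (3.10), Mdfi (3.08), Olfr570 (2.82), Lce3f (2.56), Hapln4 (2.39), Tac2 (2.17), Igsf11 (1.78) and Abra (1.76). Lower by the most were Il21r (-3.34), Gprc5d (-3.11), Wdr54 (-2.75), Cnr2 (-2.43), S100g, Osr2 (-2.0), Kcnj12 (-1.80) and Syt16 (-1.69). Of these 16, S100g was the only one above -1 on either colon array. Il21r, the interleukin-21 receptor, read -1.85 in control colon but -5.19 in stress colon, and -4.46 and -4.06 on the WT arrays, so the IL18ko control array stood alone. Among genes seen on 1 colon array only, the bounds included at least 12.5-fold higher for Cts3, 11.6-fold for Elfn1 and 5.21-fold for Olfr690 under stress, and at least 14.6-fold lower for Olfr171 and 11.8-fold for Olfr800.

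In rectum skeletal muscle genes were far lower on the stress array. Of 29 measured members 24 were lower by more than 2-fold, where 0.863% of all genes were, and these 24 were part of the 108 lower genes. The median difference was -2.03. Myh4, the heavy chain of fast-twitch fibres, read 5.39 in control and 1.80 in stress rectum (12.0-fold lower, with -3.36 from its other probe), Myh8 read 5.69 and 3.06, and the fast troponin Tnni2 read 5.03 and 2.86. Myh7, the slow-fibre and cardiac heavy chain, was higher, at -3.38 and -1.45, with 2.04 from its other probe. Tnnt1 (0.03), Eno3 (-0.05) and Myh2 (-0.11) were the members nearest to 0.

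The summed signal of the muscle list was 335 in control and 117 in stress rectum, against 14.3 and 18.7 in the colon pair. Median levels of the 29 genes were 2.05 in control and 0.21 in stress IL18ko rectum, and -2.71 and -0.49 in control and stress WT rectum. The IL18ko control rectum was thus the highest of the 8 arrays, the WT pair ran in the opposite direction, and both stress rectum arrays lay between the rectum controls. All 29 genes were well above background on both IL18ko rectum arrays. How much striated muscle of the anal region each rectum pool held was not measured.

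**Figure D4:**
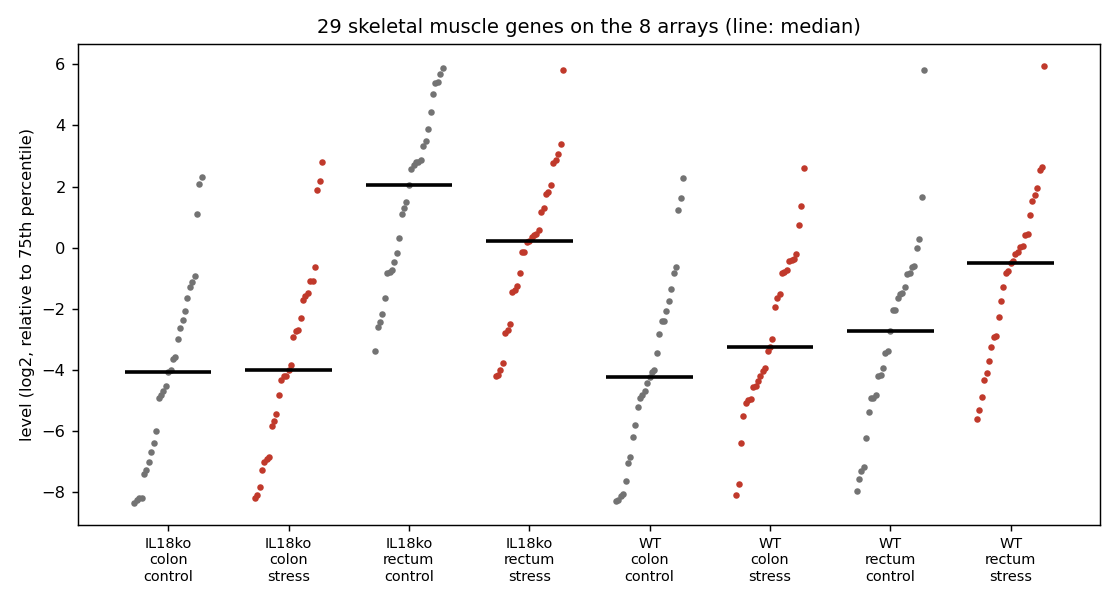
Levels (log2 relative to the 75th percentile) of the 29 skeletal muscle genes measured in IL18ko rectum on each of the 8 arrays, 1 point per gene in order of level, grey for control and red for stress, with the median as a black bar. The IL18ko control rectum has the highest median, 2.05, and the IL18ko colon arrays lie near -4.06 and -4.0.

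Single secreted products, chosen by the size of their differences, were also far higher on the control rectum array. The transcript 2310057J18Rik read 6.80 in control rectum and -5.57 in stress rectum, a difference of -12.37, and -2.83 and -5.02 in WT rectum. Seen on the control rectum array only were Prol1, Pip and Wfdc15b, at 1.96, 1.13 and -0.54, which puts them at least 339-fold, 191-fold and 59.9-fold lower in stress rectum. Mup4, a major urinary protein that binds pheromones, read -1.34 and -5.73. The fixed list of accessory and anal gland genes did not share this size: of 6 measured in rectum, 3 were lower, Mup4 alone by 2-fold, with a median near 0 and summed signals of 227 and 204 in IL18ko and 235 and 342 in WT rectum. After 2310057J18Rik, Mup4 and Myh4, the next largest were Derl3 (-2.95), Hpca (-2.87), Mlf1 (-2.85), Elf5 (-2.74) and Hoxc9 (-2.63). Of the 108 genes lower by 2-fold, the control IL18ko array was the highest of the 4 rectum arrays for 100, and the stress IL18ko array was the lowest for 19. For the 92 genes higher in colon, the stress IL18ko array was the highest of the 4 colon arrays for 86. The control IL18ko array was the lowest for 42 of them. These genes were picked by a 2-fold difference between the same 2 arrays, which favours such extremes, so the counts are descriptions only.

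Neutrophil granule genes were also lower in stress rectum. S100a9, a subunit of calprotectin, read 0.62 and -0.50, and its partner S100a8 read -3.11 and -4.88. Camp (-1.27), Ngp (-1.28) and the eosinophil granule protein Prg2 (-1.47) went the same way but were dim. Of 13 measured members 6 were lower by 1.5-fold, where 1.99% of all genes were, and 1, Alox15, was higher by 0.65, where 1.27% of all genes passed 1.5-fold. In WT rectum S100a8 and S100a9 were higher under stress, by 0.98 and 0.65. In IL18ko colon only 5 of the list were measured, with a median of 0.20.

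Squamous epithelium genes were higher in stress rectum, 8 of 17 by more than 1.5-fold where 1.27% of all genes were. By more than 2-fold 4 were higher (0.24% of all genes), and the median was 0.58. The summed signal of the list in rectum was nonetheless 67.4 in control and 67.1 in stress. In colon 10 of the 11 measured were higher too (56.7% of all genes), with a median of 0.19. There 2 were higher by 2-fold (0.746% of all genes) and 1 lower by 1.5-fold (1.51%). Lce3f is a member of this list and counts among those past 2-fold in each tissue. As the lists were chosen with earlier results of these data known, these counts are descriptions only. Over both tissues the mean difference of Krt5 was 1.13. Krt6b (-4.84 and -3.45), Krt6a (-3.23 and -2.01) and Krt4 (-4.43 and -3.27), keratins of stratified epithelium, were dim, while Krt5, the basal cell keratin, read -0.52 and 0.11, and Krt13 read 1.18 and 1.76. Members not higher were Perp (-0.09) and Trp63 (-0.15), the master regulator of basal cells. The list's mean level was -3.62 and -2.95 on the IL18ko rectum arrays and -4.39 and -4.87 in WT. The genes with the largest upward differences in rectum were dim: Cd5l (2.27), Septin3 (2.11), Ccdc14 (2.10), Olfr578 (2.02), Myh7, Hbb-bh1 (1.89), Mospd3 (1.77, but 0.37 from its other probe) and Calm4 (1.55). Among those seen under stress only, the bounds were at least 14-fold for Piwil1, 11.6-fold for Apoa5 and 11.1-fold for Nlrp4a.

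The fit over both tissues asked which probes differed the same way in colon and rectum. With 2 pairs it has 1 residual degree of freedom, and limma borrows the spread from all probes. Of 24504 probes on all 4 arrays, 3 passed an adjusted p of 0.05 (0.0122%). An unadjusted p under 0.05 was reached by 858, which is a share of the probes smaller than 0.05. Lce3f, a late cornified envelope gene of skin-type epithelium, read -4.53 and -1.97 in colon and -5.33 and -3.86 in rectum. Its mean difference was 2.01 ± 0.27 (limma SE, 2 pairs, limma adjusted p = 0.0146). Here and below, the value after ± uses the spread that limma borrows from all probes. It is not the observed spread between the 2 pairs. Both stress arrays lay above both controls, and the WT pairs differed by -0.14 and -0.010. The other 2 called probes, A_52_P280630 (-1.96 ± 0.25) and A_52_P62986 (1.16 ± 0.16), have no gene name in the tables used here; both had a limma adjusted p of 0.0146. These calls rest on the settings: with quantile normalization, normexp background, no intensity trend, a robust prior, all 8 arrays in one fit or no tissue term, limma called 0.

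Genes just outside the threshold are given as values. Epha2, an ephrin receptor of epithelium, read 1.61 and 2.46 in colon and 0.50 and 1.35 in rectum, 0.85 ± 0.15 over both tissues (limma adjusted p = 0.107). Hsph1, an HSP110 co-chaperone, read 4.51 and 3.70 in colon and 2.81 and 2.15 in rectum, -0.73 ± 0.13 (limma adjusted p = 0.107). Tfap2e, a factor of the AP-2 family, was 0.80 ± 0.14 (limma adjusted p = 0.107), and it was higher in the WT pairs too, by 1.27 and 1.23.

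Further genes higher in both tissues were Fosl1, an AP-1 subunit of the immediate early list, at 0.80 in colon and 1.05 in rectum, the cornified envelope gene Sprr1a (0.76 and 0.78), Agxt (0.89 and 0.98), Olfr578 (0.76 and 2.02), Clvs2 (0.70 and 1.15) and Dntt (0.75 and 0.73). Of these Sprr1a alone was above 0 on an array, at 0.61 and 1.37 in colon. Genes lower in both were the adipokine Lep (-0.94 and -1.21), the carboxylesterase Ces1g (-0.87 and -0.68), the chitinase-like protein Chil3 (-0.63 and -1.56), H2ap (-0.84 and -0.83), Cib2 (-1.39 and -0.59), Parvb (-1.54 and -0.60) and Tmem139 (-0.96 and -0.63). Ces1g was the brightest of these, at 1.70 and 0.83 in colon.

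Heat shock and endoplasmic reticulum chaperones were slightly lower in both tissues. Of 24 measured, 19 were lower in colon (43.3% of all genes) and 18 in rectum (52.2%), with medians of -0.18 and -0.15. In each tissue 1, Hsph1, was lower by 1.5-fold (1.51% and 1.99% of all genes). Hspa8, the constitutive HSC70, read 6.19 and 5.62 in colon and 6.10 and 5.85 in rectum, and its other probe gave -0.98 and -0.10. Hspa5, the endoplasmic reticulum chaperone BiP, differed by -0.28 and -0.44. The small heat shock protein Hspb1 went the other way in colon, by 0.61.

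**Figure D5:**
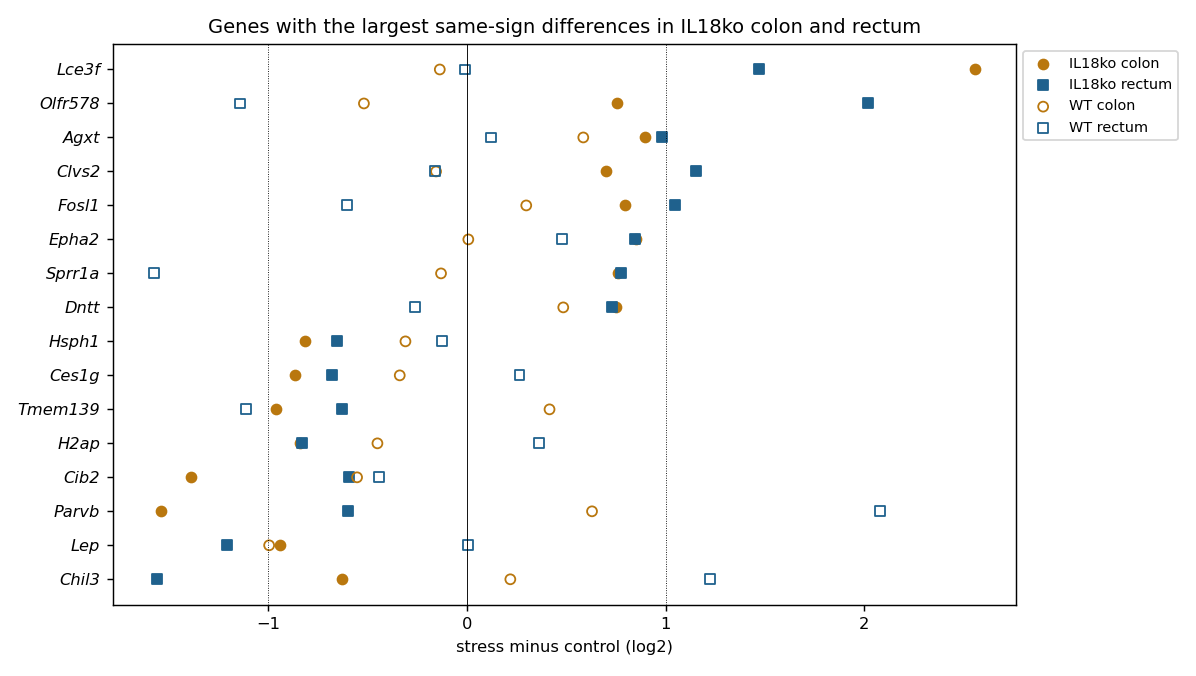
Stress minus control differences (log2) of the 16 genes with the largest same-sign differences in IL18ko colon (filled circles) and IL18ko rectum (filled squares), with the WT colon and rectum values of the same genes as open symbols and dotted lines at 2-fold. Lce3f lies past 2-fold in both IL18ko tissues and near 0 in both WT tissues; each of the other genes lies within 2-fold in at least 1 IL18ko tissue.

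Opposite differences past 2-fold were all higher in colon and lower in rectum. Crhr2, a receptor for the stress peptides of the corticotropin-releasing family, read -5.42 and -4.18 in colon and -3.01 and -4.18 in rectum. Hhip, which binds and restrains hedgehog ligands, read -5.03 and -3.81 in colon and -3.21 and -4.24 in rectum. Abra, an actin-binding protein of striated muscle, read -4.65 and -2.89 in colon and -2.26 and -3.26 in rectum, and Mybpc2, a myosin-binding protein of fast muscle, -2.61 and -1.59 in colon and 3.49 and 1.16 in rectum. Of the 5, Jchain alone lay above the median level of all genes in both tissues, and Mybpc2 did so in rectum. Next came Mgarp (0.97 and -0.97). For Crhr2, Hhip, Abra and Mybpc2 the control rectum array was the highest of the 4 IL18ko arrays. In the reverse pattern, lower in colon and higher in rectum, the leading genes were Slc17a8 (-0.94 and 1.39), Wdr54 (-2.75 and 0.90), Cryga (-0.97 and 0.72), Tmc1 (-0.65 and 0.78), Lfng (-0.63 and 0.69) and Sstr1 (-0.63 and 0.65), all dim.

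Hormone, clock and receptor genes of the stress axes were given by list. Glucocorticoid-responsive genes had medians of -0.08 in colon and -0.11 in rectum: Fkbp5, a sensitive glucocorticoid target, differed by -0.31 and 0.25, Tsc22d3, which encodes GILZ, by -0.12 and -0.30, and Sgk1, a kinase of sodium transport, by -0.25 and -0.64. In this list Dusp1 and Angptl4 were the members past 2-fold in colon, in opposite directions. Clock output genes were higher in both tissues for Nr1d1, the repressor REV-ERB-alpha (0.98 and 0.61), and Dbp (0.32 and 0.75), while the core activator Arntl differed by 0.18 and -0.16, with list medians of 0.15 and 0.11. Among stress peptide and serotonin genes Crhr2 was the only member past 2-fold. Tph1, the enzyme that makes gut serotonin, differed by -0.66 in colon and 0.06 in rectum, with -1.09 and 0.44 from its other probe.

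Epithelial programmes differed by small amounts, though some leaned to one side. Of 31 cell cycle and DNA replication genes 0 passed 1.5-fold in either tissue, with medians of -0.08 in both. In rectum 27 of the 31 were lower (52.2% of all genes), and in colon 10 were higher (56.7%). Goblet cell genes had medians of -0.12 and 0.14. In colon 3 of 16 were higher (56.7% of all genes), and in rectum 5 of 15 were lower (52.2%). The trefoil peptide Tff3 read 6.66 and 6.88 in colon and 6.62 and 6.63 in rectum. Ion and water transport genes had medians of 0.02 and 0.11, and tight junction genes -0.02 and 0.03. Sterol synthesis genes had medians of 0.17 in colon and 0.13 in rectum over 23 genes. In colon 18 were higher (56.7% of all genes) and in rectum 8 were lower (52.2%), but only 10 had the same sign in both tissues. Higher by 1.5-fold in colon were 3 (6.28% of all genes), Insig1 (0.79), Hsd17b7 (0.64) and Hmgcs1 (0.59).

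Interferon-stimulated genes had medians of -0.15 in colon and 0.02 in rectum. Of the 36 measured in colon 10 were higher, where 56.7% of all genes were. Genes of the IL-18 pathway had medians of 0.05 and 0.01. In rectum 3 of its 17 measured genes were lower by 1.5-fold, where 1.99% of all genes were. They were Il1r2, a decoy receptor for interleukin-1 (-1.97), Nlrp3, an inflammasome sensor (-0.93), and the cytokine Il1b (-0.72), all dim.

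The difference between the genotypes' responses was fitted with limma over the 4 pairs. With 2 residual degrees of freedom, 0 of 23554 probes on all 8 arrays passed (0%). An unadjusted p under 0.05 was reached by 279, again a share smaller than 0.05. The stromal, macrophage and immediate early values given above for WT are therefore set beside those of IL18ko as measurements, with no call that the genotypes differ. Lce3f could not enter that fit, since it was not above background on all 8 arrays.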

How the data were processed

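The scanner text files hold processed signal intensity, deposited by the authors from Feature Extraction 9.5.1.1 per the file headers, which subtracts background and flags spots. The deposited table holds the ratio of each array to the WT control colon array, per the labels; log2 of the stress ratio minus log2 of the control ratio served as an alternative, and it matched the scanner differences with a Pearson r of 1.00 in colon and 0.985 in rectum over 18277 probes, with a median shift of 0.13 (log2) in rectum. Aligners and builds do not apply.

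Outlier and control spots were left out, each array was scaled to its 75th percentile, and spots of a probe were averaged. Of 40963 probes, 22857 were named (16309 genes, by accession through RefSeq) and 18106 were not. A gene is represented by its brightest probe over the 4 arrays and counted when well above background on both arrays of a pair. Genes named are the 8 largest differences per direction and tissue, the 8 shared and 6 opposite per pattern, the 3 largest bounds per direction and list members past 2-fold; others were chosen after their values were seen. Members and the 36 lists were chosen with earlier results of these data known. limma 3.58.1 (R 4.3.3) was used with trended eBayes and Benjamini-Hochberg. It was also run on arrays simulated from the fits to these data, with known changes added, and that outcome is not given here. Alternatives were quantile and median scaling, normexp background, the deposited ratios, other filters and thresholds, limma settings and left-out pairs. A few genes that the naming rule selects are not reported here.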

Additional observations from a re-analysis of the deposited data

Results flagged for a closer look

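The following results stand out because the differences had opposite signs in the tissues or in the genotypes. None of these differences was tested, since each comes from 1 pooled array per group.

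Between IL18ko colon and rectum, Abra differed by 1.76 and -1.001, Crhr2 by 1.24 and -1.17, Hhip by 1.22 and -1.03, Jchain by 1.03 and -1.05 and Mybpc2 by 1.02 and -2.32. The skeletal muscle list had medians of 0.31 in colon and -2.03 in rectum. Skeletal muscle signal was highest on the IL18ko control rectum array. Abra, Mybpc2, Crhr2 and Hhip also read highest there among the IL18ko arrays, and the part of muscle signal in their results was not tested.

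Between genotypes, Lce3f differed by 2.56 and 1.47 in IL18ko colon and rectum and by -0.14 and -0.010 in WT colon and rectum, both close to 0. It was not above background on the WT rectum arrays, which read -7.80 and -7.81.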

How the results depend on the processing

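The colon and rectum counts past 2-fold (134 and 138) became 34 and 55 with normexp background, 39 and 26 with the deposited ratios (42 and 32 from the scanner values on the same 10185 and 10184 genes), 358 and 343 when 1 array above background sufficed, 961 and 408 at 1.5-fold, 19 and 72 at 3-fold, and 17 and 21 among bright genes, an alternative added after seeing the data. The rectum count was 60 over genes above background on all 8 arrays. The single gene past 2-fold the same way became 2 with quantile normalization, 14 with 1 array sufficing and 32 at 1.5-fold. It became 0 with normexp, the deposited ratios, all 8 arrays, 3-fold, bright genes or without the muscle, adipocyte, squamous and gland lists. That gene, Lce3f, is dim, belongs to the squamous list and was not above background on the WT rectum arrays. The all 8 arrays, bright gene and list settings therefore removed it beforehand. On the genes of the deposited ratios the scanner values also gave 0. The 5 opposite genes became 3 with quantile normalization or median centring, 19 with 1 array sufficing, 52 at 1.5-fold and 0 with normexp or 3-fold. They became 1 with bright genes and 1 with the deposited ratios, where the scanner values on the same 10166 genes gave 2.

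The 3 limma calls over both tissues became 1 with probes above background on at least 2 of 4 arrays, and 0 with quantile normalization, normexp, no trend, a robust prior, all 8 arrays or no tissue block (735, 828, 975, 770, 267 and 46 probes at an unadjusted p under 0.05). Leaving out a pair there leaves no residual degree of freedom. Against WT, limma called 4 with normexp and 20 to 549 with 1 pair left out, 549 without the WT colon pair, 39 without the WT rectum pair, 25 without the IL18ko colon pair and 20 without the IL18ko rectum pair. The cause was not tested.

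Of 368 values under alternatives, for the differences of named genes past 2-fold only, 0 changed sign and 72 moved by more than the scanner error. Of 216 list medians 215 stayed. No paired analysis was possible because replicate numbers only name the 1 array of a group; the pairs fitted are the tissues' own stress and control arrays. Dim genes limit these results: most genes past 2-fold lay well below the median level.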

Other observations

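Enteroendocrine genes had medians of 0.09 in colon and 0.03 in rectum over 22 genes. Past 2-fold in colon were Nts and Ghrl, encoding the hunger hormone ghrelin (-1.07, dim, but -0.07 from its other probe), while the hormones Pyy (0.12), Gcg (0.19) and Sst (0.00) lay near 0 and Insl5 read 4.49 and 4.88. Among xenobiotic genes Ugt1a1, which conjugates bilirubin, read -0.68 and -2.02 in colon, and Cyp3a25 differed by -1.11; the list medians were -0.05 and -0.10.

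Of 16 positional genes of the posterior gut, 3 were lower by 1.5-fold in stress colon, where 1.51% of all genes were, and the list median was -0.09. Hoxb6 read 1.30 and 0.34, Hoxb7 read 1.72 and 1.04, and Hoxd9 differed by -0.87 (-0.20 from its other probe), while Cdx2, an intestinal master regulator, read 7.10 and 6.93. In rectum Hoxb6 differed by 0.19. Marco, a scavenger receptor of macrophages, was dim and differed by 1.30 in rectum against -0.20 in colon, opposite to the medians of the macrophage list. Adipocyte genes had medians of 0.01 in colon and -0.20 in rectum, with Adipoq at -0.54 and -0.45.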
